A study of Mus musculus with 9 samples.

Results

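Described here are 35 genes of glycolysis and of the response to low oxygen, taken by symbol from a list of the pathway, out of 24100 gene IDs in the count table. Of the 35, 34 had enough counts to be tested, and the gene left out was Car9. The study sequenced poly(A) RNA of cells, called neural by their labels, that were differentiated from mouse embryonic stem cells and expressed histone H4 with an HA peptide tag from a stably inserted PiggyBac transposon. In the H4K91R group the tagged histone had arginine in place of 1 lysine, in the H4K91Q group it had glutamine there, and in the H4WT group it was wild type. Each group had 3 libraries, and all 9 came from cells that expressed a tagged H4. The labels do not say whether the libraries of a group were separate differentiations or clones, so the p-values measure only the spread between these libraries, which may be technical.

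Glycolysis splits glucose into pyruvate in the cytosol, and lactate dehydrogenase turns pyruvate into lactate so that the pathway can run without oxygen. When oxygen is low, the prolyl hydroxylases that mark the alpha subunits of HIF (hypoxia-inducible factor) for breakdown work less, and HIF then raises glucose transporters, most glycolytic enzymes, Pdk1 and genes of vessel growth, matrix and mitophagy. Several steps have more than 1 enzyme form, and the forms Eno2, Pfkm and Ldhb are typical of neurons, muscle or heart rather than of proliferating cells. Pluripotent and proliferating cells are known for high glycolysis, which falls as neurons form.

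Total counts ran from 8970553 to 28887501 per library. Neuron markers were present in every library and summed to 1304 to 1585 CPM (counts per 1000000, scaled between libraries by TMM) in H4K91R and 1052 to 1140 CPM in H4K91Q, against 442 to 556 CPM in H4WT. Markers of smooth muscle were also present, and they summed to 483 to 769 CPM in H4K91R and 452 to 508 CPM in H4K91Q, against 4020 to 4835 CPM in H4WT. In such bulk RNA, fewer cells of a type and less RNA per cell cannot be told apart.

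Most of the pathway was lower in the mutant cultures. In H4K91R against H4WT, 22 of the 34 tested members fell and 7 rose (edgeR quasi-likelihood test, Benjamini-Hochberg adjusted p below 0.05), where 46.0% of all 14761 tested genes were called, 25.1% lower and 20.9% higher. Of the members 64.7% were lower and 20.6% higher, and the higher share was close to that of all genes. Their median log2 change was -0.33, beside -0.03 over all tested genes. In H4K91Q against H4WT, which uses the same H4WT libraries, 20 members fell and 7 rose, where 46.3% of all tested genes were called, 23.8% lower and 22.5% higher. The members' shares were 58.8% lower and 20.6% higher, and their median log2 change was -0.34, beside 0.01 over all tested genes. The members are mostly abundant, which makes small changes easier to call. A limit of 10 CPM on the mean level, set after the data were seen, left 10265 tested genes and 33 members. In H4K91R 66.7% of these members and 29.8% of these genes were called lower, and 21.2% and 17.5% higher. In H4K91Q 60.6% of the members and 28.8% of the genes were lower, and 21.2% and 18.6% higher.

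The libraries of H4K91R all lay below those of H4WT for 22 members and all above for 7, where 30.1% and 25.0% of all tested genes did so. For H4K91Q the counts were 21 below and 7 above, where 27.7% and 27.4% of all genes did so. With scaling by library totals alone, the median log2 change of all genes became 0.15 in H4K91R and 0.18 in H4K91Q. By that scaling the members' medians became -0.15 in H4K91R and -0.17 in H4K91Q. It called 15 members lower and 8 higher in each mutant. Of all tested genes it called 13.6% lower and 34.1% higher in H4K91R, and 14.0% and 37.6% in H4K91Q. It ended the calls of Hk1, Gpi1, Pfkp, Tpi1, Gapdh, Bnip3 and Bnip3l in H4K91R and of Tpi1, Pgk1, Pkm, Hif1a and Mxi1 in H4K91Q, each with its sign kept. Among the calls of all genes, the share that were higher was 45.5% by TMM and 71.4% by totals in H4K91R, and 48.5% by TMM and 72.9% by totals in H4K91Q. By both scalings the members' median lay below that of all genes.

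**Figure D1:**
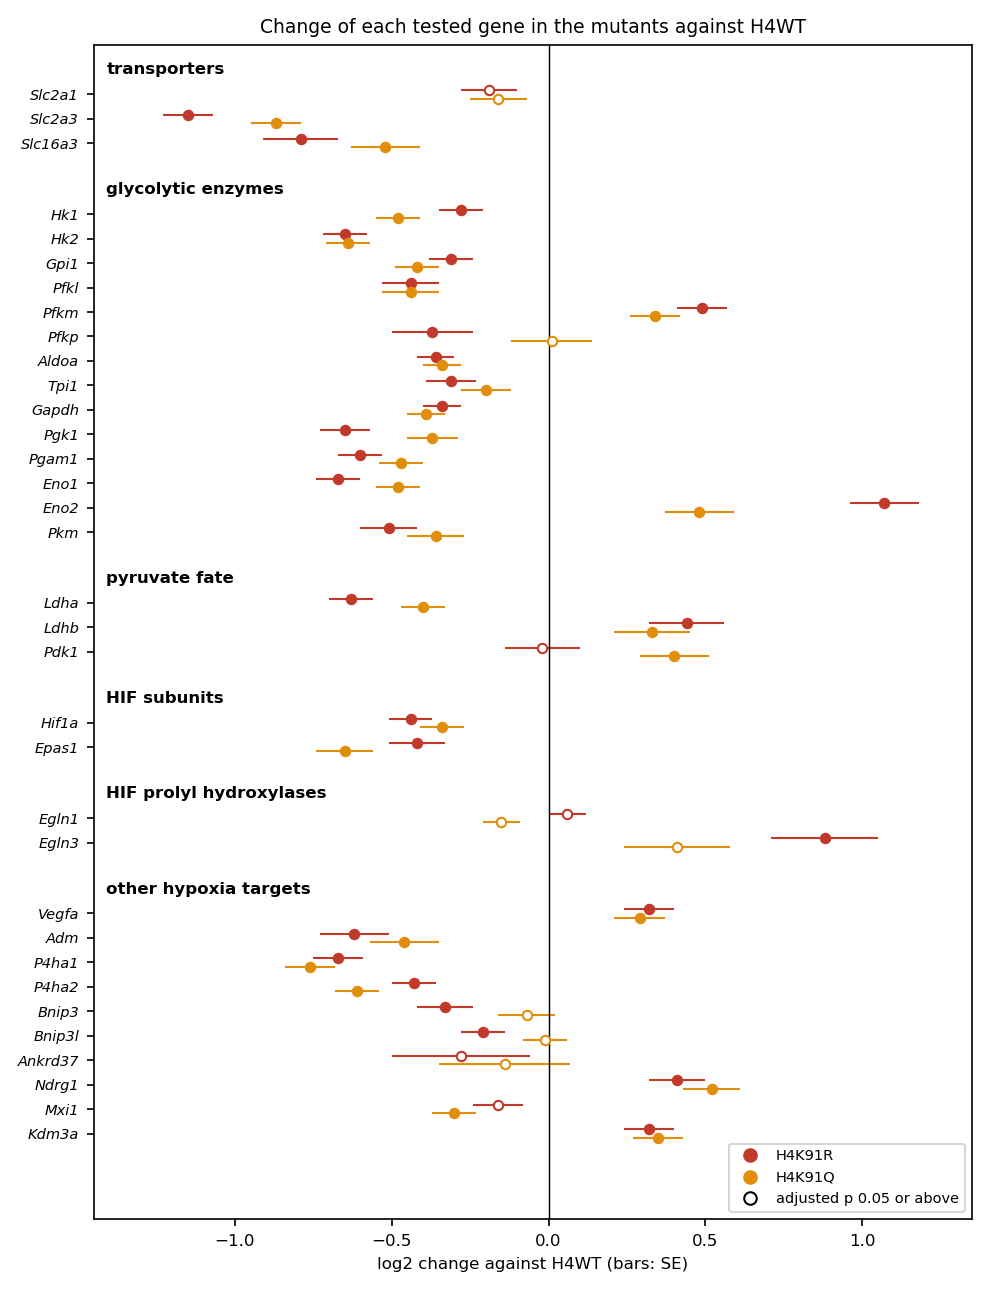
Log2 change of each tested member in H4K91R and in H4K91Q against H4WT, ordered by role, with bars of 1 SE and open circles where the adjusted p (edgeR) was 0.05 or above. Most glycolytic enzymes lie left of 0 in both comparisons, while Eno2, at 1.07 in H4K91R and 0.48 in H4K91Q, lies to the right.

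HIF acts on its target genes through a short core in their control regions, ACGTG or GCGTG, so promoters of members are shown before the values. The core was searched on both strands in the 300 bases from 250 before to 50 after each RefSeq start. An ACGTG was present near at least 1 start of 20 of the 30 tested members with a promoter entry, 66.7%, beside 28.5% of the 11629 tested genes with one. With either core the shares were 90.0% of members and 66.1% of tested genes. Counted by promoter, 23 of 46 promoters of members, 50%, held ACGTG, beside 24.6% of 14823 promoters of tested genes. Shown are 4 members that fell in both mutants, Pgk1, Ldha, Hk2 and P4ha1, and Eno2, with the largest increase in H4K91R, in GRCm38.p6 coordinates, read 5′ to 3′ along the gene, with every core in capitals. A core on the other strand reads CACGT or CACGC, and CACGTG, which is also the E-box of other factors, counts on both strands.
Pgk1, chrX:106186850-106187149, plus strand: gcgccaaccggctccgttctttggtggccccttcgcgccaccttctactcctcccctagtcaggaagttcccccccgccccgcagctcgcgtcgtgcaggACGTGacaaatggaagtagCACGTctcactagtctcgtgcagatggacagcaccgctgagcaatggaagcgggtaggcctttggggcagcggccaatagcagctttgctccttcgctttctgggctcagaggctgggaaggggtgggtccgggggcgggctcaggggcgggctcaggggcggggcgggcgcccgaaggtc
Ldha, chr7:46845554-46845853, plus strand: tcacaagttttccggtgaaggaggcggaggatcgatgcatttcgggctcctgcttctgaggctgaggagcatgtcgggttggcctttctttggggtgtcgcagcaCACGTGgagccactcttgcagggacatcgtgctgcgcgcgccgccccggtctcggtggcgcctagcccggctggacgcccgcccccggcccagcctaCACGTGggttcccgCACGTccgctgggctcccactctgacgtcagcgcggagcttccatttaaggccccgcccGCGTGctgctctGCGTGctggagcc
Hk2, chr6:82774405-82774704, minus strand: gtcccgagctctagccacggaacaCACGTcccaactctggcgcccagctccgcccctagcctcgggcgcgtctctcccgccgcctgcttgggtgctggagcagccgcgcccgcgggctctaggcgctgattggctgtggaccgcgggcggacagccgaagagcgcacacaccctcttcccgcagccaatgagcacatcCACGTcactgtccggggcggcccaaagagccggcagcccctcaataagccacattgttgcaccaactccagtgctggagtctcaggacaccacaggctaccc
P4ha1, chr10:59323046-59323345, plus strand: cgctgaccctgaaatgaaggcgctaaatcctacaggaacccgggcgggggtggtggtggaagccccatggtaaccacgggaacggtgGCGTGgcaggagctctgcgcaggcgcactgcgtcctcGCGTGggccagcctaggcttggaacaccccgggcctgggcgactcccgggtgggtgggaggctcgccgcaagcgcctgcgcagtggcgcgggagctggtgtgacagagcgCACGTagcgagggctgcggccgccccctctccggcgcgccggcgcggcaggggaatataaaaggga
Eno2, chr6:124769624-124769923, minus strand: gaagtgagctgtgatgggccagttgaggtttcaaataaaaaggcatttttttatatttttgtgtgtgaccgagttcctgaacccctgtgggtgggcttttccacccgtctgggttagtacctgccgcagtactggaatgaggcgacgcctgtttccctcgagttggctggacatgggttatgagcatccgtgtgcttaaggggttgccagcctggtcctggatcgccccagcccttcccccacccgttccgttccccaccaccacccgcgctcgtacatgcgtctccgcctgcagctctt
The Ldha promoter held 5 matches of ACGTG and 2 of GCGTG, and those of Pgk1 and Hk2 each held 2 of ACGTG. P4ha1 had 1 ACGTG and 2 GCGTG. In the Eno2 window these letters did not occur. By call in H4K91R, ACGTG was present for 13 of 19 members that fell, 3 of 6 that rose and 4 of 5 that were not called. By call in H4K91Q it was present for 13 of 18 that fell, 2 of 6 that rose and 5 of 6 that were not called, so members not called held it at least as often as those that fell. These are matches of letters, not measured binding, and a list that includes known HIF targets cannot test whether HIF acted here.

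Among the transporters, Slc2a3, the glucose transporter typical of neurons and embryos, had the largest decrease of any tested member. It stood at 152, 148 and 146 CPM in H4K91R and at 156, 182 and 201 CPM in H4K91Q, against 330.4, 333 and 323 CPM in H4WT. All 6 mutant libraries lay well below the H4WT libraries. The log2 change was -1.15 ± 0.08 (SE) in H4K91R and -0.87 ± 0.08 in H4K91Q (edgeR, Benjamini-Hochberg adjusted p = 3.35e-07 and 3.38e-06). Slc16a3, a lactate exporter, stood at 14.2, 13.3 and 16.2 CPM in H4K91R and at 16.5, 15.8 and 20.1 CPM in H4K91Q, against 25.9, 24.5 and 25.0 CPM in H4WT. No mutant library reached the H4WT range. Slc16a3 fell by 0.79 ± 0.12 in H4K91R and fell by 0.52 ± 0.11 in H4K91Q on the log2 scale (edgeR, Benjamini-Hochberg adjusted p = 9.96e-05 and 0.00178). Slc2a1, the widespread glucose transporter, had overlapping libraries and log2 changes of -0.19 ± 0.09 in H4K91R and -0.16 ± 0.09 in H4K91Q (edgeR, Benjamini-Hochberg adjusted p = 0.11 and 0.172). Without H4K91R replicate 3 its change in H4K91R was -0.27 (edgeR, Benjamini-Hochberg adjusted p = 0.0381).

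All 10 steps of the pathway were covered by 14 enzyme genes, of which 12 fell and 2 rose in H4K91R. In H4K91Q 11 fell, 2 rose and Pfkp was not called. The shares were 85.7% lower and 14.3% higher in H4K91R, where 25.1% and 20.9% of all tested genes were. They were 78.6% and 14.3% in H4K91Q, where 23.8% and 22.5% of all tested genes were. Summed, the 14 genes stood at 5006, 4799.7 and 5181 CPM in H4K91R and at 4863, 5346 and 5387 CPM in H4K91Q, against 6815, 6780.1 and 6696 CPM in H4WT. Every mutant library lay below every H4WT library, and the mean was 0.739 of that of H4WT in H4K91R and 0.769 in H4K91Q. Without Gapdh, the most abundant member, these ratios were 0.72 and 0.771. By step, the ratio of summed means in H4K91R was lowest at phosphoglycerate kinase, 0.64, and enolase, 0.642, and highest at phosphofructokinase, 0.846. In H4K91Q it was lowest at hexokinase, 0.674, and highest at triosephosphate isomerase, 0.873.

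**Figure D2:**
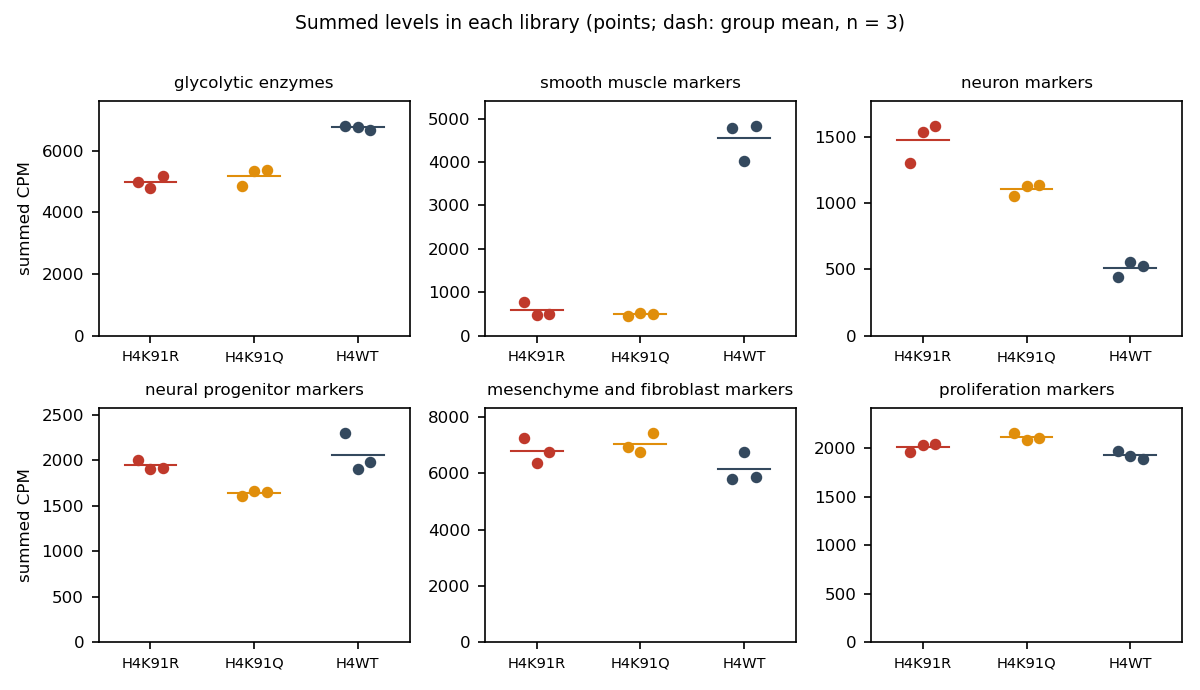
Summed CPM of the 14 glycolytic enzymes and of 5 marker lists in each library, points by group with the mean as a dash (n = 3). The glycolytic sum was 4995.6 ± 191 CPM in H4K91R and 5199 ± 291 CPM in H4K91Q, against 6764 ± 61.5 CPM in H4WT (SD), and the smooth muscle sum differed far more.

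In the first steps, Hk2, the hexokinase form that HIF raises, stood at 81.9, 80.8 and 80.8 CPM in H4K91R and at 75.8, 81.4 and 88.4 CPM in H4K91Q, against 130.2, 130.5 and 121 CPM in H4WT. Neither mutant overlapped with H4WT. The log2 change was -0.65 ± 0.07 in H4K91R and -0.64 ± 0.07 in H4K91Q (edgeR, Benjamini-Hochberg adjusted p = 9.54e-06 and 1.19e-05). Hk1, the form that most tissues use, fell by 0.28 ± 0.07 in H4K91R and fell by 0.48 ± 0.07 in H4K91Q. Gpi1, which makes fructose phosphate, changed by -0.31 and -0.42. Among the phosphofructokinases, which set the pace of the pathway, the liver form Pfkl changed by -0.44 ± 0.09 in each mutant. The muscle form Pfkm rose, by 0.49 ± 0.08 in H4K91R and 0.34 ± 0.08 in H4K91Q. The platelet form Pfkp had log2 changes of -0.37 ± 0.13 in H4K91R and 0.01 ± 0.13 in H4K91Q (edgeR, Benjamini-Hochberg adjusted p = 0.0357 and 0.963). Its call in H4K91R was lost without H4K91R replicate 2 or 3 or without H4WT replicate 1 or 3 (edgeR, Benjamini-Hochberg adjusted p from 0.0874 to 0.12). It was also lost with RLE scaling in edgeR, DESeq2 and limma-voom (Benjamini-Hochberg adjusted p = 0.0535, 0.0566 and 0.065).

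Below the split of the sugar, Aldoa, the aldolase form of muscle and most tissues, changed by -0.36 ± 0.06 in H4K91R and -0.34 ± 0.06 in H4K91Q. Gapdh, often taken as a constant reference gene, averaged 1408 ± 10 CPM in H4K91R and 1356 ± 59.7 CPM in H4K91Q, against 1781 ± 29 CPM in H4WT (SD, n = 3 each). It changed by -0.34 ± 0.06 and -0.39 ± 0.06, called in each mutant, but with scaling by library totals its change of -0.15 in H4K91R was not called (edgeR, Benjamini-Hochberg adjusted p = 0.057). Tpi1, which interconverts the triose phosphates, changed by -0.31 ± 0.08 in H4K91R and -0.20 ± 0.08 in H4K91Q (edgeR, Benjamini-Hochberg adjusted p = 0.00525 and 0.0486). The call in H4K91Q was lost when H4K91R replicate 1 or 2, H4K91Q replicate 1 or 3 or H4WT replicate 1 or 2 was left out (edgeR, Benjamini-Hochberg adjusted p from 0.0548 to 0.162), with no filter (0.0697) and with the replicate block (0.0661).

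The lower part of the pathway, where ATP is gained, held several of the larger decreases in H4K91R. Pgk1, phosphoglycerate kinase, stood at 301, 262 and 307 CPM in H4K91R and at 328, 380.4 and 346 CPM in H4K91Q, against 475, 462 and 424 CPM in H4WT. It changed by -0.65 ± 0.08 in H4K91R and -0.37 ± 0.08 in H4K91Q (edgeR, Benjamini-Hochberg adjusted p = 3.18e-05 and 0.00247). The 3 groups did not overlap, with H4K91Q between the others. Pgam1, the mutase of the next step, stood at 343, 317 and 339 CPM in H4K91R and at 346, 379 and 373 CPM in H4K91Q, against 518, 486 and 515 CPM in H4WT. Its log2 changes were -0.60 ± 0.07 and -0.47 ± 0.07 (edgeR, Benjamini-Hochberg adjusted p = 9.38e-06 and 8.66e-05), again with every mutant library below every H4WT library. Pkm, the pyruvate kinase that yields ATP and pyruvate, stood at 832, 772 and 904 CPM in H4K91R and at 814, 974 and 990.5 CPM in H4K91Q, against 1249, 1169.5 and 1150.3 CPM in H4WT. Its mutant libraries were all lower, and the log2 changes were -0.51 ± 0.09 and -0.36 ± 0.09 (edgeR, Benjamini-Hochberg adjusted p = 0.000341 and 0.00403). The counts are per gene, so the splice forms of Pkm could not be told apart.

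Enolase showed opposite changes of its forms. Eno1, the form of most cells, stood at 511, 505 and 519 CPM in H4K91R and at 529.8, 609 and 614 CPM in H4K91Q, against 816, 823 and 805 CPM in H4WT. It fell, with log2 changes of -0.67 ± 0.07 in H4K91R and -0.48 ± 0.07 in H4K91Q (edgeR, Benjamini-Hochberg adjusted p = 5.36e-06 and 9.6e-05). Its near copy Eno1b averaged 218 CPM in H4K91R and 253 CPM in H4K91Q, against 334 CPM in H4WT, so the counter may have split reads between them. Summed with it, the changes were -0.66 and -0.46. Eno2, the neuronal enolase, stood at 16.9, 16.6 and 17.1 CPM in H4K91R and at 11.2, 10.4 and 12.3 CPM in H4K91Q, against 7.58, 8.04 and 8.57 CPM in H4WT. The 3 groups did not overlap, and Eno2 rose by 1.07 ± 0.11 in H4K91R and by 0.48 ± 0.11 in H4K91Q (edgeR, Benjamini-Hochberg adjusted p = 6.61e-06 and 0.00345). Neuron markers rose too, 12 of 14 in each mutant, and their part in the result was not tested. Per kilobase of exon Eno2 remained minor, at 6.04 CPM in H4K91R, 4.03 in H4K91Q and 2.88 in H4WT, where Eno1 had 201, 229.5 and 320.0.

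**Figure D3:**
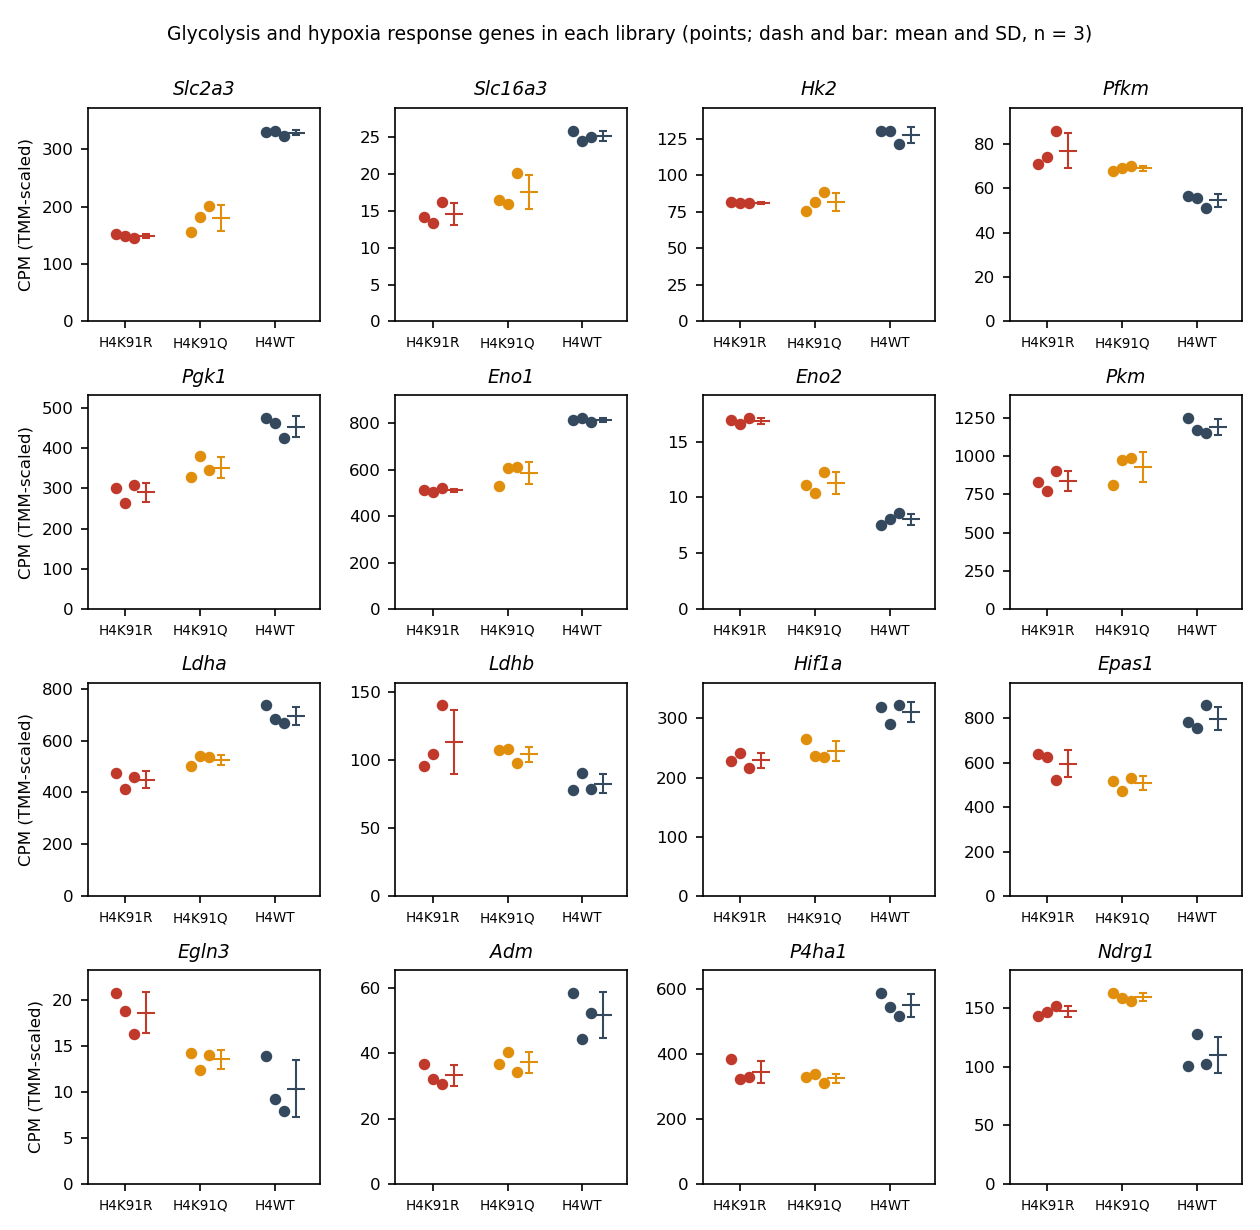
CPM of 16 members in each library, points by group, with the mean and SD as a dash and bar (n = 3) and each axis starting at 0. Slc2a3 and Hk2 are lower in all mutant libraries, and Eno2 is highest in H4K91R at 16.6 to 17.1 CPM.

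Of the genes that handle pyruvate, Ldha, the lactate dehydrogenase subunit that favours lactate, stood at 474, 413 and 461 CPM in H4K91R and at 502, 539 and 536 CPM in H4K91Q, against 735, 681 and 669 CPM in H4WT. The groups were apart, and it changed by -0.63 ± 0.07 in H4K91R and -0.40 ± 0.07 in H4K91Q (edgeR, Benjamini-Hochberg adjusted p = 1.36e-05 and 0.000525). Ldhb, the heart subunit, averaged 114 ± 23.6 CPM in H4K91R and 104 ± 5.46 CPM in H4K91Q, against 82.8 ± 7.05 CPM in H4WT (SD, n = 3 each). It rose by 0.44 ± 0.12 in H4K91R and by 0.33 ± 0.12 in H4K91Q (edgeR, Benjamini-Hochberg adjusted p = 0.00901 and 0.0391). Its call in H4K91Q was lost without H4K91Q replicate 1 or 2 or H4WT replicate 1 or 3 (edgeR, Benjamini-Hochberg adjusted p from 0.0993 to 0.12). Pdk1, a kinase that inhibits pyruvate dehydrogenase, had log2 changes of -0.02 ± 0.12 in H4K91R and 0.40 ± 0.11 in H4K91Q (edgeR, Benjamini-Hochberg adjusted p = 0.916 and 0.0127). The rise in H4K91Q was not called without H4K91Q replicate 2 (0.30, adjusted p = 0.0655 by edgeR) or H4WT replicate 1 (0.32, adjusted p = 0.0558 by edgeR).

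Both HIF alpha subunits fell in each mutant, although by library totals the change of Hif1a in H4K91Q, -0.17, was not called (edgeR, Benjamini-Hochberg adjusted p = 0.0675). Hif1a, the broadly expressed subunit, stood at 229, 241 and 216.5 CPM in H4K91R and at 265, 236 and 234 CPM in H4K91Q, against 318, 290.2 and 321 CPM in H4WT. It changed by -0.44 ± 0.07 in H4K91R and -0.34 ± 0.07 in H4K91Q (edgeR, Benjamini-Hochberg adjusted p = 0.000332 and 0.0022). All 6 mutant libraries were below the lowest of H4WT. Epas1, the other HIF alpha subunit, known from vessels and mesenchyme, stood at 638, 625 and 525 CPM in H4K91R and at 521, 473.5 and 531 CPM in H4K91Q, against 784, 755 and 858 CPM in H4WT. Its mutant libraries also lay below those of H4WT, and it changed by -0.42 ± 0.09 and -0.65 ± 0.09 (edgeR, Benjamini-Hochberg adjusted p = 0.00131 and 4.88e-05). HIF is regulated mainly by protein stability, which these counts do not measure.

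Of the prolyl hydroxylases that use oxygen to mark HIF, Egln3, itself a HIF target, stood at 20.7, 18.7 and 16.2 CPM in H4K91R and at 14.2, 12.4 and 14.0 CPM in H4K91Q, against 13.8, 9.26 and 7.96 CPM in H4WT. H4WT replicate 1 stood apart from the other H4WT libraries and within the range of H4K91Q. Egln3 rose by 0.88 ± 0.17 in H4K91R and its change in H4K91Q was 0.41 ± 0.17 (edgeR, Benjamini-Hochberg adjusted p = 0.000854 and 0.0617). The change in H4K91Q was called in 5 of 18 alternatives: without H4WT replicate 1 (0.62, adjusted p = 0.00438 by edgeR), with the replicate block (0.41, adjusted p = 0.0298 by edgeR), with no filter, by library totals and with limma-voom. Egln1, the main oxygen sensor, had log2 changes of 0.06 ± 0.06 and -0.15 ± 0.06 (edgeR, Benjamini-Hochberg adjusted p = 0.48 and 0.067). Its call also depended on the settings, since without H4K91Q replicate 3 the change in H4K91Q was -0.18 (edgeR, Benjamini-Hochberg adjusted p = 0.0472) and by library totals that in H4K91R was 0.25 (adjusted p = 0.00761 by edgeR).

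Of the other 11 hypoxia targets, 10 were tested, with 5 lower and 3 higher in H4K91R and 4 lower and 3 higher in H4K91Q. Of all tested genes 25.1% were lower and 20.9% higher in H4K91R, and 23.8% and 22.5% in H4K91Q. Whether the counts of these targets differ from those shares was not tested. The collagen prolyl hydroxylase subunits, which stabilise collagen, were the most clearly lower. P4ha1 stood at 384.5, 324 and 329.5 CPM in H4K91R and at 329, 338 and 310.2 CPM in H4K91Q, against 589, 544 and 519 CPM in H4WT. No mutant library reached the H4WT range, and the log2 changes were -0.67 ± 0.08 and -0.76 ± 0.08 (edgeR, Benjamini-Hochberg adjusted p = 1.99e-05 and 8.73e-06). P4ha2 stood at 274, 240.3 and 252.5 CPM in H4K91R and at 214, 239.8 and 225 CPM in H4K91Q, against 336, 368 and 332 CPM in H4WT. Its groups did not overlap with H4WT, and its log2 changes were -0.43 ± 0.07 and -0.61 ± 0.07 (edgeR, Benjamini-Hochberg adjusted p = 0.000351 and 2.47e-05). Adm, the vasodilator peptide adrenomedullin, stood at 36.8, 32.0 and 30.7 CPM in H4K91R and at 36.8, 40.5 and 34.3 CPM in H4K91Q, against 58.4, 44.5 and 52.3 CPM in H4WT. It was lower in all mutant libraries, by -0.62 ± 0.11 and -0.46 ± 0.11 on the log2 scale (edgeR, Benjamini-Hochberg adjusted p = 0.000524 and 0.00365).

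Ndrg1, a stress-induced gene also known from myelinating cells, went the other way. It stood at 144, 147 and 152 CPM in H4K91R and at 163, 159 and 157 CPM in H4K91Q, against 101, 128 and 102.5 CPM in H4WT. The groups were apart, and Ndrg1 rose by 0.41 ± 0.09 in H4K91R and by 0.52 ± 0.09 in H4K91Q (edgeR, Benjamini-Hochberg adjusted p = 0.00185 and 0.000299). Vegfa, the main growth factor for vessels, rose by 0.32 ± 0.08 and 0.29 ± 0.08. Kdm3a, a histone demethylase, rose by 0.32 ± 0.08 and 0.35 ± 0.08. The mitophagy receptors Bnip3 and Bnip3l changed by -0.33 ± 0.09 and -0.21 ± 0.07 in H4K91R, both called, and their log2 changes in H4K91Q were -0.07 and -0.01, neither called. Bnip3l in H4K91R lost its call when any 1 of the H4K91R or H4WT libraries, or H4K91Q replicate 2, was left out (edgeR, Benjamini-Hochberg adjusted p from 0.0532 to 0.138). Its call was also lost with RLE scaling in edgeR, the replicate block in edgeR and DESeq2 (Benjamini-Hochberg adjusted p = 0.0621, 0.0529 and 0.0658). Mxi1, an antagonist of MYC, had a log2 change of -0.16 ± 0.08 in H4K91R and fell by 0.30 ± 0.07 in H4K91Q (edgeR, Benjamini-Hochberg adjusted p = 0.111 and 0.00525). Ankrd37, at 2.70 to 4.57 CPM over all libraries, had log2 changes of -0.28 ± 0.22 and -0.14 ± 0.21 and was not called. Car9, a carbonic anhydrase that is a sharp marker of HIF activity, had 6, 2 and 1 counts in H4K91R and 6, 6 and 1 in H4K91Q, against 11, 11 and 12 in H4WT. The libraries differ in depth. As CPM, Car9 stood at 0.345, 0.157 and 0.098 in H4K91R and at 0.257, 0.299 and 0.059 in H4K91Q. In H4WT it stood at 1.323, 0.407 and 1.470 CPM, so H4WT replicate 2 lay close to H4K91R replicate 1. Fitted without the filter, its log2 change was -2.0 in H4K91R and -2.04 in H4K91Q (edgeR, Benjamini-Hochberg adjusted p = 0.0218 and 0.0114), values that rest on few counts.

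Ratios of related genes within a library do not depend on the scaling between libraries. The log2 ratio of Eno2 to Eno1 averaged -4.92 ± 0.01 in H4K91R and -5.70 ± 0.16 in H4K91Q, against -6.66 ± 0.10 in H4WT (SD, n = 3 each), differences of 1.74 and 0.96. For Ldhb to Ldha it averaged -2.0 ± 0.30 and -2.33 ± 0.11, against -3.07 ± 0.16 in H4WT. For Pfkm to Pfkl it averaged -1.42 ± 0.14 and -1.58 ± 0.10, against -2.35 ± 0.14 in H4WT. The neuronal, heart and muscle forms made up more of their pair in every mutant library. As a share per length, Ldhb was 26.7% ± 4.02 of the pair in H4K91R and 22.4% ± 1.33 in H4K91Q, against 14.8% ± 1.42 in H4WT, and Pfkm was 31.7% ± 2.14 and 29.5% ± 1.43, against 19.6% ± 1.55 in H4WT (SD, n = 3 each). Slc2a3 went the other way, with 27.7% ± 2.13 of the pair with Slc2a1 in H4K91R and 31.2% ± 0.435 in H4K91Q, against 42.6% ± 1.67 in H4WT.

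Of 10 such pairs, the libraries did not overlap with H4WT for 7 in H4K91R and 8 in H4K91Q. The share of all gene pairs that do so was not counted. Of all single tested genes, 30.1% lay wholly below and 25.0% wholly above H4WT in H4K91R, and 27.7% and 27.4% in H4K91Q. The other pairs of the 10 moved less. The log2 ratio differed from H4WT by 0.82 in H4K91R and 0.58 in H4K91Q for Egln3 to Egln1. It differed by -0.37 and -0.16 for Hk2 to Hk1 and by 0.24 and 0.15 for P4ha2 to P4ha1. For Epas1 to Hif1a the differences were 0.01 and -0.31, and for Pfkp to Pfkl 0.04 and 0.42. Bnip3l to Bnip3 overlapped in both comparisons, with differences of 0.12 and 0.06. With 3 libraries against 3, the two-sided exact permutation test cannot go below p = 0.1, which every pair without overlap reached. Over the 30 tests the smallest Benjamini-Hochberg adjusted value of this exact test was 0.15, so none passes a threshold of 0.05.

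**Figure D4:**
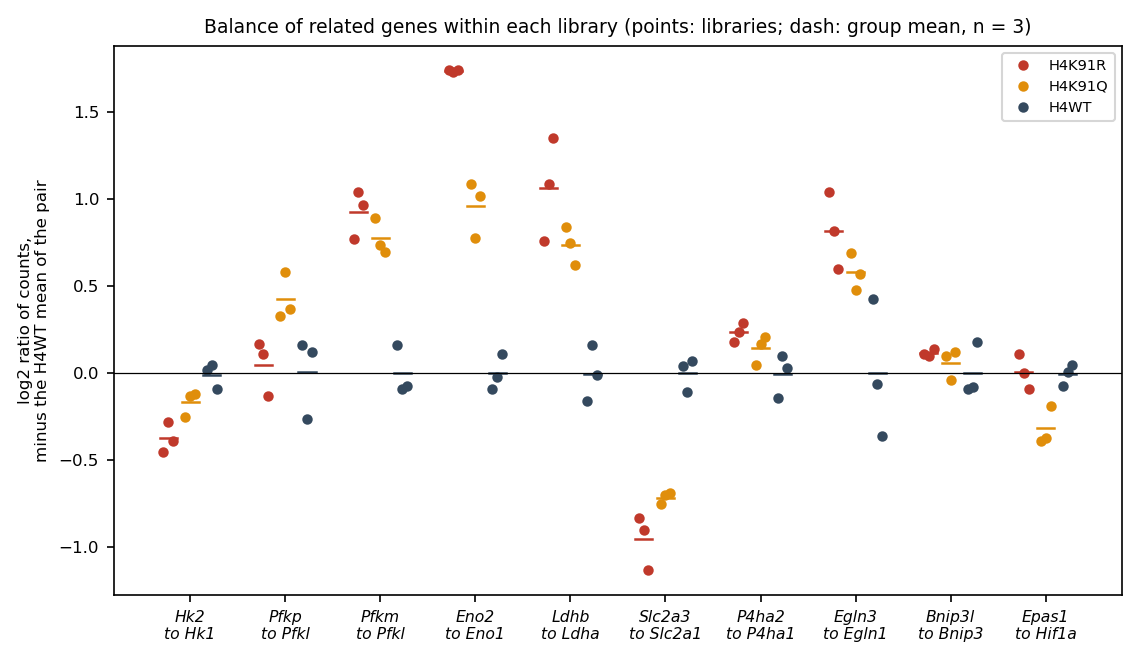
Log2 ratio of the counts of related genes within each library, less the mean ratio of H4WT for the pair, points by group with the mean as a dash (n = 3). Eno2 to Eno1 separates all 3 groups, at 1.74 in H4K91R and 0.96 in H4K91Q above H4WT, and Slc2a3 to Slc2a1 lies below 0.

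Between the mutants few members were called. In H4K91Q against H4K91R, 1 of 34 members was called, where 5.16% of all tested genes were, 2.78% lower and 2.37% higher. That member was Eno2, lower in H4K91Q by -0.58 ± 0.10 on the log2 scale (edgeR, Benjamini-Hochberg adjusted p = 0.00868). The libraries of the mutants did not overlap for 9 members that were higher in H4K91Q and 7 that were lower, where 12.5% and 12.8% of all tested genes were so placed. At an unadjusted p under 0.05 in the edgeR test there were 15 members, 9 higher and 6 lower in H4K91Q. The share of all genes at that limit was not counted. Those lower included, besides Eno2, Egln1 by -0.21 ± 0.06 and Egln3 by -0.47 ± 0.16 (edgeR, Benjamini-Hochberg adjusted p = 0.0726 and 0.101). Those higher in H4K91Q included Pgk1 by 0.28 ± 0.08, Ldha by 0.23 ± 0.07, Slc2a3 by 0.27 ± 0.08 and Pdk1 by 0.41 ± 0.11, with Benjamini-Hochberg adjusted p of 0.0692, 0.0882, 0.0726 and 0.0555 by edgeR. Pdk1 was called in 6 of 18 alternatives, with values from 0.39 to 0.45: with no filter, with the replicate block (0.41, adjusted p = 0.012 by edgeR), from the compared groups only, with DESeq2, after thinning to equal totals, and without H4WT replicate 2 (0.40, adjusted p = 0.0415 by edgeR). Slc2a3 was called without H4K91Q replicate 1 (0.37, adjusted p = 0.027 by edgeR). Calls were also gained by Epas1 without H4K91R replicate 3 (-0.31), and by Bnip3 (0.35) and Bnip3l (0.26) without H4K91Q replicate 3. Egln3 was called without H4WT replicate 1 (-0.48) and from the compared groups only (-0.47), Pgk1 with no filter (0.28) and Egln1 with DESeq2 (-0.24).

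The other genes of these pathways were read from lists of related function. Of 24 tested further glycolysis genes, 9 fell and 2 rose in H4K91R, and 10 fell and 2 rose in H4K91Q, so 37.5% and 41.7% were lower, where 25.1% and 23.8% of all tested genes were. The shares called in either direction, 45.8% and 50%, were close to those of all genes. Aldoc, the aldolase form of brain, averaged 34.2 ± 0.575 CPM in H4K91R and 22.1 ± 3.71 CPM in H4K91Q, against 12.7 ± 0.522 CPM in H4WT (SD, n = 3 each). It rose by 1.43 ± 0.12 and 0.79 ± 0.12, and between the mutants it was lower in H4K91Q, by -0.64 ± 0.11 (edgeR, Benjamini-Hochberg adjusted p = 0.00729). Eno3, the muscle enolase, averaged 4.44 ± 0.508 CPM in H4K91R and 6.48 ± 1.02 CPM in H4K91Q, against 15.3 ± 0.99 CPM in H4WT, with log2 changes of -1.77 and -1.24. Markers of striated muscle summed to 27.9 to 28.6 CPM in H4K91R and 22.2 to 26.7 CPM in H4K91Q, against 45.9 to 53.3 CPM in H4WT. Of the 6 tested, 2 fell in H4K91R, Actc1 and Acta1, and 3 fell in H4K91Q, where 25.1% and 23.8% of all tested genes were lower. Myod1, Myog, Ckm and Myl2 were under 1 CPM on average. The part of these markers in the Eno3 result was not tested. Tigar, which lowers fructose bisphosphate signals, changed by -0.65 and -0.58, and Pfkfb3, which raises them, by -0.72 in H4K91Q. Pfkfb3 averaged 24.4 ± 2.26 CPM in H4K91R and 21.0 ± 1.99 CPM in H4K91Q, against 34.9 ± 5.17 CPM in H4WT (SD, n = 3 each).

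Of 16 genes of pyruvate and lactate handling, 5 fell and 2 rose in H4K91R, and 2 fell and 3 rose in H4K91Q. The shares called, 43.8% and 31.2%, were no higher than the 46.0% and 46.3% of all tested genes. Pdp1, the phosphatase that activates pyruvate dehydrogenase, rose by 0.75 ± 0.12 and 0.88 ± 0.11, and Pdk4, a kinase that inhibits it, changed by -1.22 ± 0.21 and -1.03 ± 0.20. Of 10 pentose phosphate genes 5 fell and 0 rose in each mutant (edgeR), a share called of 50%, among them Rpe, changed by -0.59 in H4K91R and -0.38 in H4K91Q, and Prps2, changed by -0.43 and -0.38. Of 18 genes of the HIF machinery, 2 fell and 5 rose in H4K91R, and 2 fell and 4 rose in H4K91Q, so 38.9% and 33.3% were called, below the shares of all genes. Arnt2, the neural partner of HIF alpha, averaged 47.0 ± 4.82 CPM in H4K91R and 35.6 ± 2.06 CPM in H4K91Q, against 15.9 ± 2.55 CPM in H4WT. It rose by 1.54 ± 0.12 and 1.13 ± 0.12 (edgeR, Benjamini-Hochberg adjusted p = 4.5e-07 and 6.2e-06). Hif3a, a HIF subunit with inhibitory forms, rose by 0.68 ± 0.16 and 1.23 ± 0.15.

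Of 49 tested other hypoxia-responsive genes, 28 fell and 8 rose in H4K91R, 57.1% and 16.3%, and 23 fell and 8 rose in H4K91Q, 46.9% and 16.3%. Of all tested genes 25.1% were lower and 20.9% higher in H4K91R, and 23.8% and 22.5% in H4K91Q. Loxl2, which crosslinks collagen, changed by -1.44 ± 0.16 and -1.88 ± 0.16, and Apln, a vascular peptide, by -1.84 ± 0.29 and -1.88 ± 0.28. Cxcr4, a chemokine receptor of migrating neurons, rose by 2.0 ± 0.17 and 1.52 ± 0.17. The median over the list was -0.31 in H4K91R and -0.30 in H4K91Q, close to the medians of the members.

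Markers of several cell types also differed between the groups. Their counts stand beside 25.1% of all tested genes lower and 20.9% higher in H4K91R, and 23.8% and 22.5% in H4K91Q. All 8 tested smooth muscle markers fell in each mutant, with Myocd the marker under 1 CPM on average, and neural progenitor markers rose, 9 of 11 in H4K91R and 8 of 11 in H4K91Q. Of the same progenitor list 1 fell in H4K91R and 2 fell in H4K91Q. Vim changed by -0.59 in H4K91R and -0.70 in H4K91Q, and Nes by -0.49 in H4K91Q. The progenitor sum ran from 1906 to 2006 CPM in H4K91R and 1607 to 1662 CPM in H4K91Q, against 1903 to 2303 CPM in H4WT. Epithelium markers fell, 7 of 9 tested in each mutant, with sums of 878 to 992.5 CPM in H4K91R and 960.3 to 1089.5 CPM in H4K91Q, against 1437 to 1602 CPM in H4WT. Pluripotency markers fell in H4K91R, 9 of 10, and rose in H4K91Q, 7 of 10, with sums of 168 to 188 CPM in H4K91R and 262 to 342 CPM in H4K91Q, against 232 to 261 CPM in H4WT. Of 10 proliferation markers, 0 were called in H4K91R by edgeR and 3 rose in H4K91Q, with sums of 1959 to 2040.3 CPM in H4K91R and 2080.0 to 2156 CPM in H4K91Q, against 1886 to 1966 CPM in H4WT. Mesenchyme and fibroblast markers summed to 6378 to 7255 CPM in H4K91R and 6768 to 7441 CPM in H4K91Q, against 5807 to 6770.2 CPM in H4WT. Immediate-early genes, which respond to handling, fell, 9 of 12 in each mutant, with sums of 616 to 719 CPM in H4K91R and 687 to 739 CPM in H4K91Q, against 829.5 to 964 CPM in H4WT. Endothelial and blood markers summed to 24.0 to 25.4 CPM in H4K91R and 29.2 to 30.2 CPM in H4K91Q, against 21.8 to 26.7 CPM in H4WT, with Ptprc and Tie1 among those under 1 CPM. The part of any of these in the members' results was not tested.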

How the data were processed

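The table that the authors deposited holds expected counts for each gene, all of them whole. Salmon 0.8.2, which estimates counts by transcript, and mm10 are named for it per the submitters' processing notes, as is DESeq2 with neither version nor role. For any rounding, the gene annotation and the strand setting, the sources used here give nothing. CPM is counts scaled to 1000000 per library. The table's 24100 Entrez IDs were matched to RefSeq GRCm38.p6, which gave 24045 a symbol, among them all 35 members. The other 55 held 0.037% to 0.0584% of a library's counts and stayed in the tests by ID.

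Genes were filtered with filterByExpr (minimum count 10) in edgeR 4.0.16 (R 4.3.3), scaled by TMM (factors 0.911 to 1.06) and fitted with 1 mean per group over all 9 libraries. The coefficient of variation was 8.82%. Tests were two-sided and adjusted by Benjamini-Hochberg over 14761 genes, with 0.05 as the threshold, after the test was tried on simulated data. A count of 0 allows up to 3 counts, 0.111 to 0.367 CPM, which covers counting error only. CPM and log2 changes were computed here, and levels per kilobase use the length of the joined exons. Promoters are RefSeq's for GRCm38.p6, with an entry for 30 tested members. Bnip3l, Ndrg1, Epas1 and Slc2a3 are named only.

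The members and lists were chosen with earlier results of these data known, so no list was tested as a set. Library values are printed for members called with a log2 change of at least 0.5 in size against H4WT, or between the mutants, and for Hif1a and Epas1. From each related list, up to 3 called genes a direction with a mean of at least 2 CPM could be named. Some genes that this rule takes are left out of the text. Of 235 listed names, 233 matched. Alternatives were RLE scaling, library totals, no filter, DESeq2 1.42.0, voom in limma 3.58.1, a replicate block, compared groups only, thinning to 8970553 counts, leaving out each library, and, added after the data were seen, Eno1 and Eno1b summed.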

Additional observations from a re-analysis of the deposited data

How the results depend on the processing

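Of the called members, 22 of 29 in H4K91R and 20 of 27 in H4K91Q were called in each of 18 alternatives, 0 changed sign, and Eno2 between the mutants was called in all 18. Those that lost a call somewhere were Hk1, Gpi1, Pfkp, Tpi1, Gapdh, Bnip3 and Bnip3l in H4K91R, and Tpi1, Pgk1, Pkm, Ldhb, Pdk1, Hif1a and Mxi1 in H4K91Q. Library totals alone ended the calls of Hk1, Gpi1, Tpi1, Gapdh and Bnip3 in H4K91R and of Pgk1, Pkm, Hif1a and Mxi1 in H4K91Q. The median log2 change of all genes was 0.15 in H4K91R and 0.18 in H4K91Q by totals, and -0.03 and 0.01 by TMM. Which scaling fits these libraries better was not tested. The members' median in H4K91R was -0.30 with RLE scaling and with DESeq2, -0.31 from the compared groups only and -0.15 by library totals, and from -0.34 to -0.32 with a library left out. In H4K91Q it was -0.17 by library totals.

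Members not called in the comparison changed sign under some settings, and the cause was not tested. Pdk1 in H4K91R was at 0.01 with RLE scaling, with the replicate block, from the compared groups only and after thinning, at 0.02 with DESeq2, at 0.16 by totals, and from -0.09 to 0.13 with a library left out. By totals Mxi1 in H4K91R was at 0.03, and in H4K91Q Slc2a1 was at 0.01, Egln1 at 0.02, Bnip3 at 0.10, Bnip3l at 0.16 and Ankrd37 at 0.03. In H4K91Q Pfkp was at -0.09 after thinning. With a library left out, Pfkp ran from -0.10 to 0.12, Bnip3 from -0.13 to 0.02, Bnip3l from -0.07 to 0.06 and Ankrd37 from -0.27 to 0.00.

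Between the mutants the members called higher were 2 with no filter, 1 with the replicate block, 1 from the compared groups only, 1 with DESeq2 and 1 after thinning, and from 0 to 2 with a library left out. The members called lower were 2 from the compared groups only and 2 with DESeq2, and from 1 to 2 with a library left out. All genes called between the mutants, 761, ran from 186 without H4K91R replicate 2 to 1092 without H4K91Q replicate 3, with 199 without H4K91Q replicate 2, 295 without H4K91Q replicate 1 and 409 without H4K91R replicate 1. The replicate block called 7 members higher and 21 lower in H4K91R, and 8 higher and 19 lower in H4K91Q. Of all tested genes it called 21.0% higher and 24.7% lower in H4K91R, and 22.7% and 23.7% in H4K91Q. Deviations of same-numbered libraries from their group means had correlations from -0.163 to 0.198, and from 0.172 to 0.198 for number 1. Libraries of different numbers were not compared, so these values cannot show whether the numbers pair the samples. Depth limits Car9 and Ankrd37 most, since a count of 0 allows up to 0.367 CPM in the shallowest library.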
